A study of Rattus norvegicus with 24 samples.

Results

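The 1159 transcript clusters described here were the noncoding clusters of the dorsal striatum table that were detected in control rats. A transcript cluster is the unit of the array: a set of probes, usually 30, that is read as 1 RNA. Members had to be typed as noncoding, to carry no microRNA symbol, and to have a mean signal over the 6 CT arrays above that of bioB, a bacterial hybridisation control that averaged 9.27 on the log2 scale in CT arrays. They made up 1159 of 68842 clusters on the array, 4.09% of the 28309 noncoding clusters without a microRNA symbol, and 11.9% of the 9755 clusters that passed the same limit. Because the members were chosen by their measured CT signal, their level in CT rats and every difference from CT are given as descriptions, and only differences among the other 4 groups are read as tests.

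Male Sprague-Dawley rats self-administered methamphetamine (METH) or saline, and lever presses for the drug were later punished with footshocks. The groups were SR (shock-resistant METH rats that kept taking the drug, n = 6), SS (shock-sensitive METH rats that cut their intake, n = 6), YSR and YSS (saline rats that received non-contingent shocks whenever a linked SR or SS rat was shocked, n = 3 each) and CT (saline rats without shocks, n = 6). SR and SS were set apart after the fact by how the animals responded, and the YSR rats received more shocks than the YSS rats. The rats were killed after about a month of withdrawal, a day after a cue test, and each array held RNA of 1 rat. Of the 13 listed markers of striatal projection neurons 12 were measured, and all 12 averaged above bioB in every group.

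Noncoding RNAs of the brain differ widely in size and task. Small nucleolar RNAs (snoRNAs) guide chemical changes on ribosomal RNA, transfer RNAs (tRNAs) carry amino acids, microRNA precursors are cut from hairpins, and long noncoding RNAs can act at the gene that makes them or, like antisense transcripts, lie across a neighbour. Many neuronal genes also have very long introns, and RNA from within them is seen in brain tissue before splicing is complete. In imprinted regions, where only the copy from a given parent is active, long noncoding RNAs and snoRNAs are often made side by side.

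The members with a RefSeq entry whose sequence helps to read the values are shown first. Bc1 is a short RNA made by RNA polymerase III in rodent neurons, where it binds the translation machinery in dendrites. It was the only member from a list of 38 long noncoding RNA genes of brain and nucleus. The window below runs from 250 bases before to 50 bases after its start site, so its last 50 bases are the start of the RNA itself (RefSeq, build GRCr8, chr1:209502647-209502946, plus strand). Capitals mark the match to the polymerase III A box, searched on both strands with any base allowed at its variable positions, which lies 14 bases past the start; 15.4% of 33469 promoter windows of this length held a match on either strand.
Bc1: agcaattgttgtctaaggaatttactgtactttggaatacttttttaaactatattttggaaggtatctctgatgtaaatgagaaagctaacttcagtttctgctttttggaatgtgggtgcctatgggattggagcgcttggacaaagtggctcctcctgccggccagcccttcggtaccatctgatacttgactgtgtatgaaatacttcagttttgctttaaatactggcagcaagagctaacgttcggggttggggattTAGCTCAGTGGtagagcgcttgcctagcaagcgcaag

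A run of microRNA-like members lay in and beside Sfmbt2, and 3 members there, chosen after their values were seen, were described as precursors of miR-466b and miR-466c. Their mature products from RefSeq are shown with those of miR-297, whose precursor was a member on chromosome 10. Capitals mark the seed, bases 2 to 8, which pairs with target messages. No 2 of the 6 seeds were the same.
rno-miR-466b-5p: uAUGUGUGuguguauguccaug
rno-miR-466b-3p: aUACAUACacacacacauacac
rno-miR-466b-2-3p: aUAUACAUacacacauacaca
rno-miR-466c-5p: uGUGAUGUguguauguacaug
rno-miR-466c-3p: uAUACAUGcacacauacacac
rno-miR-297: aUGUAUGUgugcauguaugcaug

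These precursors sat low on the scale, at 10.12 for rno-mir-466c, 9.71 for rno-mir-466b-1, 9.64 for rno-mir-466b-2 and 10.23 for rno-mir-297 in CT rats. Both miR-466b clusters shared every value with another cluster. The rno-mir-466c cluster gave a YSR minus YSS difference of -0.72 and the rno-mir-466b-2 cluster of -0.50 (SE 0.27, adjusted p = 0.914, limma), and neither met the criterion described further on.

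Few members had a gene symbol that says what they do. By their annotation, 356 were Ensembl transcripts without a symbol, 288 and 138 were mouse transcripts or mouse predicted genes placed on the rat genome, 150 were rat loci with a placeholder name, and 140 were entries of the NONCODE collection. Ensembl called 348 members microRNA genes, with a median length of 90.5 bases. Named classes were small. They comprised 26 antisense or opposite-strand transcripts, 8 C/D box and 4 H/ACA box snoRNAs, 5 other structured RNAs, 3 ribosomal RNA entries, 2 snoRNA host genes, 1 small Cajal body RNA and 1 small nuclear RNA. Some of these classes were defined after the annotation had been read. Only 25 members matched a gene of the RefSeq table, which typed 14 of these as long noncoding RNAs, 2 as protein-coding genes and 2 as pseudogenes.

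The 4 lists of well-known noncoding RNAs had 98 entries, with a few genes repeated between lists, and 4 of the genes were represented among the members. Most list genes had no cluster under their symbol, so the small number says little about expression. Bc1 averaged 18.50 in CT rats on the chromosome 1 cluster (chr1:218075359-218075511, coordinates of the array file, which names no build). Its within-group SD was only 0.13, and its largest tested difference was 0.20, between SS and YSS rats (adjusted p = 0.987, limma). The other cluster with the symbol Bc1, on chromosome 11, had 1 probe and spanned 121760 bases, so its level of 19.74 cannot be read as Bc1. Gas5, a host gene for C/D box snoRNAs, sat close to the limit at 9.60 in CT rats with a within-group SD of 0.13. The RNA subunits of ribonuclease P (Rpph1) and ribonuclease MRP (Rmrp), enzymes that trim tRNA and ribosomal RNA precursors, averaged 11.77 and 16.42. The RefSeq table gives Rmrp as another name of its Rpph1 entry on chromosome 15, so which RNA the Rpph1 cluster on chromosome 14 measures is uncertain. LOC100910332, described in the file as similar to GTL2, the imprinted RNA also called Meg3, averaged 14.31; it was chosen after its values were seen.

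The members spanned nearly the whole range of the array. Their CT median was 11.79, with quartiles of 10.12 and 15.28, against 10.90 for the 4969 expressed coding clusters. At the top, 39 members stayed within 0.5 of the highest value of the array on all 24 arrays, which lay between 19.76 and 19.93, and a rise there can hardly be seen. These were short, with a median of 70 bases. The 10 highest CT means belonged to Ensembl or NONCODE entries and to a mitochondrial ribosomal RNA, and 9 of them fell into sets of clusters that shared exactly the same values on every array. Such sharing was common, with 86 members in 32 sets of identical profiles, so that the 1159 members held 1105 distinct profiles. At the bottom, 97 members lay within 0.25 above the limit and 97 noncoding clusters within 0.25 below it. The members just above it were a cluster within Gria1 at 9.275, LOC102555286 at 9.281 and LOC102547415 at 9.284, and the clusters just below it stood at 9.268, 9.268 and 9.257. On all 24 arrays 864 members exceeded the bioB value of the same array. Set against each group's own bioB mean, 1084 members were above it in SR, 1064 in SS, 1140 in YSR and 1129 in YSS rats, with bioB itself at 9.30 in SR, 9.52 in SS, 9.09 in YSR and 9.29 in YSS.

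By position, 595 members (51.3%) lay outside any coding gene, 333 (28.7%) within the span of a coding gene on its own strand, and 225 (19.4%) across a coding gene on the opposite strand. The file gives no exons, so a cluster within a gene may lie in an intron or an exon. Several stretches of the genome held many members. The mitochondrial genome held 27, among them 18 tRNAs and 2 ribosomal RNAs. On chromosome 1, 37 members lay at chr1:116594973-117147185, all on the minus strand, with 7 of them across Ube3a. In mouse and human this interval carries a long RNA that is made from the paternal copy, bears snoRNAs, and runs across Ube3a, which encodes a ubiquitin ligase. The members there had a median length of 78 bases, and 34 of them were placed from mouse chromosome 7. A further 20 members lay at chr1:194836498-195072378, up to Snord107 beside Snurf, the gene at which that RNA starts in mouse. The file coordinates put these stretches 77.7 Mb apart. On chromosome 17, 37 members filled chr17:71773511-72072093, and 23 of them lay within Sfmbt2 on its own strand; in mouse, an intron of this gene holds a large cluster of repeat-rich microRNAs. The Sfmbt2 messenger itself was not detected, with a mean of 5.04 in CT rats. Pcdh9 held 16 members in a row, Nrxn3 13 and a stretch beyond Robo2 13; these genes encode a protocadherin, a presynaptic neurexin and an axon guidance receptor.

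Variation between arrays was larger in the members than in messenger RNAs. Each array held 1 rat, so differences between rats and measurement noise cannot be told apart. The 2 sets were not matched for probe number or length, and 964 of the 1159 members had 30 probes. The median within-group SD was 0.31 in members, against 0.19 in expressed coding clusters. Much of it was shared. With group means removed, the first principal component held 41.8% of the members' variance and 34.5% of the coding clusters' variance, and the median correlation between 2 members over 24 arrays was 0.31. The mean over all members was lowest in the SR5 array at 12.53 and highest in the YSS2 array at 13.32, a range of 0.787, against 0.212 for the coding mean. The arrays with high members had low coding means, with r = -0.85 over 24 arrays; both means come from the same normalised arrays and are not independent. In tissue homogenates a lower signal can come from fewer cells of a type or from less RNA in each cell, and these cannot be told apart.

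**Figure D1:**
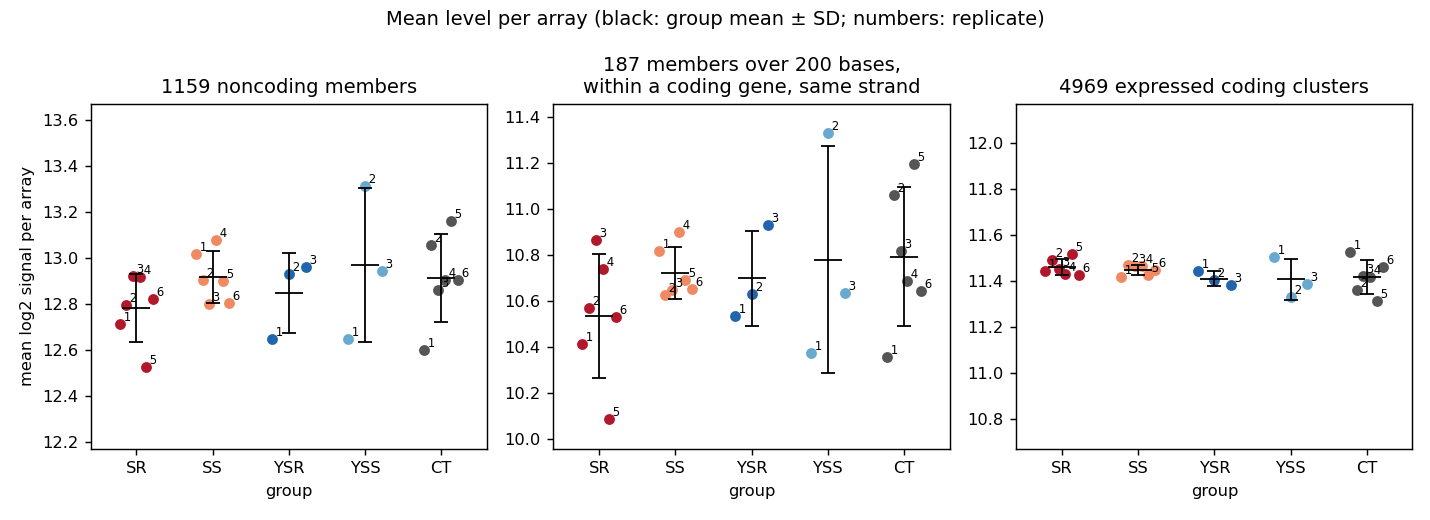
Mean log2 signal per array of the 1159 members, of the 187 members over 200 bases within a coding gene on its strand, and of the 4969 expressed coding clusters, by group; each point is an array, numbers are replicates, and black bars are the group mean and SD. The y axes cover equal ranges, and the members spread over 0.787 log2 units between SR5 and YSS2 while coding clusters spread over 0.212.

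Groups overlapped in this shared level. The mean over members was 12.78 ± 0.15 in SR rats (SD, n = 6), 12.92 ± 0.11 in SS rats (n = 6), 12.85 ± 0.17 in YSR rats (n = 3), 12.97 ± 0.33 in YSS rats (n = 3) and 12.92 ± 0.19 in CT rats (n = 6). Differences between groups took 17.7% of the members' variance, where 4 of 23 degrees of freedom alone would give 17.4%. SR rats were lower than SS rats in 961 of the 1159 members, with a median difference of -0.13, against a median of 0.02 over coding clusters. The members are not independent in this count: the mean over all of them ran between 12.53 and 12.92 in SR arrays and between 12.80 and 13.08 in SS arrays.

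The Ube3a and Snurf stretches moved as units. Within the Ube3a stretch the median correlation between members was 0.76, and within the Snurf stretch it was 0.64. Their means correlated at r = 0.91 over 24 arrays although the file coordinates set them far apart. Both also followed the shared level, with r = 0.90 and 0.85 to the mean over all members. The Ube3a stretch averaged between 12.80 in YSR1 and 13.92 in YSS2. No member of either stretch met the criterion in SR against SS, YSR against YSS, SR against YSR or SS against YSS. The coding cluster of Ube3a, on the other strand, stood at 11.61 in CT rats with an SD of 0.10 within groups. The Sfmbt2 stretch was as coherent, with a median correlation of 0.78, and ran between 9.79 in CT1 and 11.07 in YSS2. All 37 of its members were lower in YSR than in YSS rats, by a median of 0.50 and by up to 0.77. Its level averaged 10.10 ± 0.20 in YSR rats and 10.61 ± 0.44 in YSS rats (SD, n = 3 each), with arrays at 9.88 to 10.23 in YSR and at 10.19 to 11.07 in YSS, so that the groups overlapped. Gm24488 was the only member of this stretch at the criterion in YSR against YSS. The YSS2 array was highest in both the Sfmbt2 stretch and the mean over all members.

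Long members within a coding gene correlated more with that gene than with coding clusters at large. There were 187 members over 200 bases long inside a coding gene on its strand, and for 142 of these the coding cluster was itself expressed. Their correlation with their own coding cluster had a median of 0.66, against -0.17 with all expressed coding clusters, and 62.7% exceeded 0.5 with their own gene, against 5.86% with any coding cluster. Members of 200 bases or less on the same strand gave a median of 0.34. On the opposite strand the medians were 0.25 for 69 long members and -0.12 for 49 short ones. These correlations are across 24 arrays with group means removed and share the arrays' common level. The mean over the 187 long members followed that over all members at r = 0.94. It ranged over 1.24 log2 units, between SR5 and YSS2. The mean over the 105 coding clusters around them ranged over only 0.29, between YSR2 and SR2. Several long members lie in the same gene, so they are not separate observations.

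**Figure D2:**
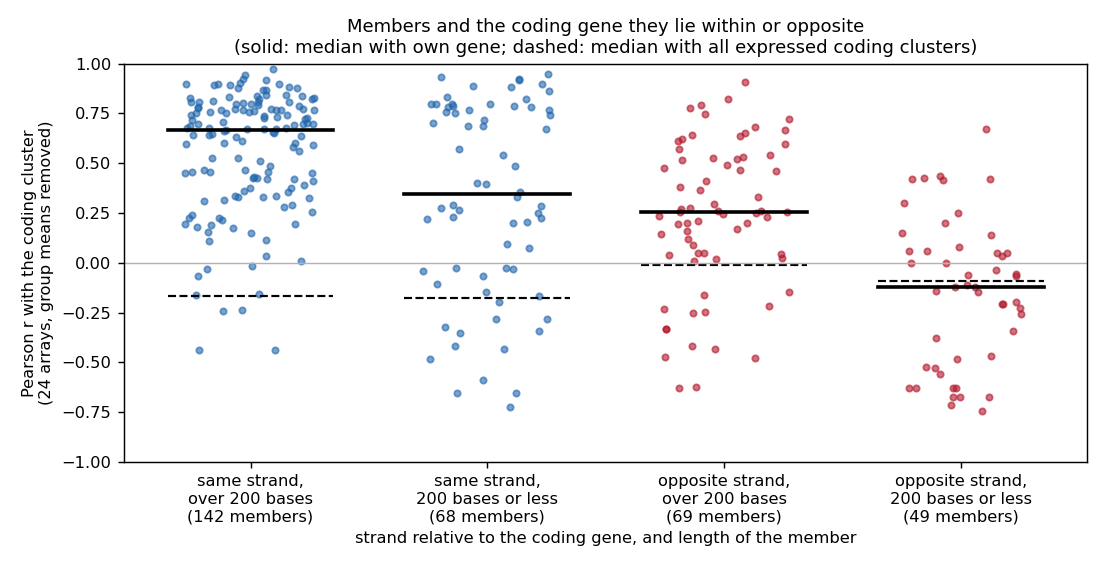
Correlation of each member with the coding cluster it lies within or opposite, over 24 arrays with group means removed; points are members, solid lines the median with the own gene, and dashed lines the median with all expressed coding clusters. Long members on the same strand centre on 0.66, while short members on the opposite strand centre on -0.12.

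Pcdh9 held 17 members over 200 bases that correlated with its coding cluster at 0.70 to 0.88. Their mean ranged between 9.99 in CT6 and 11.64 in YSS2, while the coding cluster ranged between 9.71 in CT6 and 11.36 in SS3. The 13 members of Nrxn3 correlated with the Nrxn3 messenger at 0.69 to 0.82 and ranged between 9.06 in SR5 and 11.03 in YSS2. The 8 members in Dlg2, which encodes a synaptic scaffold, correlated at only 0.38 to 0.64, and the 5 in Fgf14, a modulator of sodium channels, at 0.12 to 0.34. A stretch of 10 members at Rbfox1, a neuronal splicing factor gene (chr10:8716497-9184662), had the widest range of the stretches with 10 or more members, 8.86 in SR5 to 11.67 in YSS2. Its members were all lower in SR than in SS rats, by a median difference of -0.46, and none met the criterion. All 13 members of the Robo2 stretch and all 13 of the Nrxn3 stretch were also lower, by median differences of -0.36 and -0.32. The Rbfox1 stretch followed the mean over all members at r = 0.87, so its members do not count as separate observations. Dlg2 and Fgf14 members were themselves alike, with median correlations of 0.82 and 0.87 among each other. Marker means of neighbouring tissue moved with some of these sets: the Pcdh9 stretch correlated with the cortical markers at 0.58 and with the striatal projection neuron markers at -0.57, and the Nrxn3 stretch at 0.56 with the striatal markers and -0.66 with the choroid plexus markers. The 13 cortical markers averaged between 7.42 in CT6 and 9.94 in YSR1, with 4 of 13 above bioB in SR, 4 in SS, 5 in YSR, 7 in YSS and 4 in CT means. Their part in the results was not tested.

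METH groups were compared with each other and with their yoked groups without CT values entering the difference. A member was counted at the study's criterion, a 1.7-fold difference with an unadjusted p under 0.05, here from limma fitted over all 9755 expressed clusters. After Benjamini-Hochberg adjustment over these clusters no member passed 0.05 in any of these comparisons. The smallest adjusted p among members was 0.786 for SR against SS, 0.914 for YSR against YSS, 0.573 for SR against YSR and 0.987 for SS against YSS. The F test over SR, SS, YSR and YSS gave 93 members at an unadjusted p under 0.05, 8.02% of the members, against a background of 2.9% of all expressed clusters, and the smallest adjusted p was 0.864. That count moved with single arrays: it was 256 without YSS1, 61 without YSS2, 56 without YSR2, 53 without YSR3 and 47 without SR5.

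No member met the criterion between SR and SS rats (limma), where the background over all expressed clusters was 0.0615%. Ordinary variances without moderation also gave 0. At an unadjusted p under 0.05 there were 32 members, 2.76%, against a background of 2.32%, and 31 of the 32 were lower in SR rats, against a background of 1.73% for lower. The count at the criterion was 8 without SR3 and 6 without SS3. It was 2 without SR1 and 1 without SR5, SS5, YSS2 or CT5. Among named snoRNAs, Snord33 and Snord22 were chosen after their values were seen. Snord33 differed by 0.07 (SE 0.30, adjusted p = 0.965, limma) and Snord22 by -0.21 (SE 0.23, adjusted p = 0.809, limma). These members do not speak for the snoRNAs as a class.

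SR and YSR rats, which differ in the drug and in control over the shocks, gave 15 members at the criterion, 9 higher and 6 lower in SR, or 1.29% against a background of 1.37%. The background was 0.287% for higher and 1.09% for lower. At an unadjusted p under 0.05 there were 147, 12.7% against 7.36%, of which 24 were higher in SR against a background of 2.98% and 123 lower against 4.38%. Of the 15, 10 lay across a coding gene on the opposite strand, as did 225 of all 1159 members (19.4%). Several of the 10 varied together over the arrays, so they are not separate observations, and this share was not tested. The count was 25 without SR1 and 24 without YSR1.

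The smallest p belonged to an Ensembl transcript of 111 bases opposite Hs3st5, a heparan sulfate sulfotransferase (TC2000001632.rn.1, chr20:40503016-40503126, minus strand). Its signal was 9.04, 9.43 and 9.99 (lowest, median, highest) in SR arrays, against 7.92, 8.63 and 8.68 in YSR arrays. The groups did not overlap, and all 3 YSR arrays lay below the bioB limit of 9.27. The cluster was thus not detected in YSR rats by the study's limit, and the SR mean of 9.46 stood only 0.19 above that limit, so the size of the difference beyond 0.19 is not given. The YSS arrays read 9.47, 9.83 and 9.29 and the CT median was 9.58, and 1 SS array was also low at 8.26.

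Most other members that were higher in SR also lay across coding genes. The cluster opposite Ndufa8, a subunit of respiratory complex I, ran from 10.55 to 11.51 in SR arrays, against 9.24, 10.57 and 9.59 in YSR arrays. It was 1.21 higher in SR (SE 0.33, adjusted p = 0.573, limma; exact permutation p = 0.0238), and the ranges overlapped by a narrow margin. The cluster opposite Tubb2b, a neuronal beta tubulin, gave 10.70 to 11.58 in SR, against 9.99, 10.63 and 9.88 in YSR, a difference of 0.87 (SE 0.28, adjusted p = 0.573, limma). The mouse predicted gene Gm19767 gave 13.38 to 14.12 in SR, against 11.64, 13.54 and 12.44 in YSR, a difference of 1.18 (SE 0.41). These RNAs went together: Gm19767 and the cluster opposite LOC298611 correlated at 0.98 over 24 arrays, and the clusters opposite Ndufa8 and Tubb2b correlated with Gm19767 at 0.85 and 0.86. YSR1 was the lowest YSR array in the Ndufa8, Gm19767 and LOC298611 cases. CT arrays were as widely spread as the YSR arrays in Gm19767, between 11.85 and 14.41.

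Members lower in SR included an opposite-strand transcript across Ak3, a mitochondrial adenylate kinase (TC0100003434.rn.1, chr1:247149938-247152108, plus strand). It ran from 9.28 to 10.57 in SR arrays, against 10.39, 11.49 and 11.25 in YSR arrays, a difference of -1.08 (SE 0.29, adjusted p = 0.573, limma; exact permutation p = 0.0238). The largest differences among the 15 came from 3 NONCODE transcripts on different chromosomes. That at chr9:56092009-56092417 ran from 9.79 to 11.32 in SR, against 11.66, 13.25 and 11.70 in YSR, and was lower by 1.74 on the log2 scale (SE 0.59; exact permutation p = 0.0119, 2-sided, the smallest that 6 against 3 can give). The transcript opposite Ptprk, a receptor phosphatase, gave a log2 difference of -1.73 (SE 0.64), and that at chr6:80779820-80780418 gave -1.31 (SE 0.56). These transcripts varied together over 24 arrays, with correlations of 0.94 to 0.99. Probe sequences were not used here, so whether their probes can bind the same RNA was not tested. YSR2 was the highest array in all 3, and YSR2 also had the highest choroid plexus score, 11.23. The 3 transcripts correlated with that score at 0.55 to 0.60. Of the 15 choroid plexus markers, 2 averaged above bioB in SR and 7 in YSR; the mean ran from 5.81 to 9.75 in SR arrays and from 6.55 to 11.23 in YSR arrays. With choroid plexus and cortex scores as covariates the chromosome 9 difference was -1.17 and still met the criterion. The Ptprk difference was then also -1.17 and no longer met it. CT2 read 12.565 on the chromosome 9 transcript with a choroid plexus score of 6.55, and CT6 read 12.49 with a score of 10.85. The part of choroid plexus tissue in these differences was not tested. LOC102549714, with a log2 difference of -0.78, correlated with the choroid score at 0.72.

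**Figure D3:**
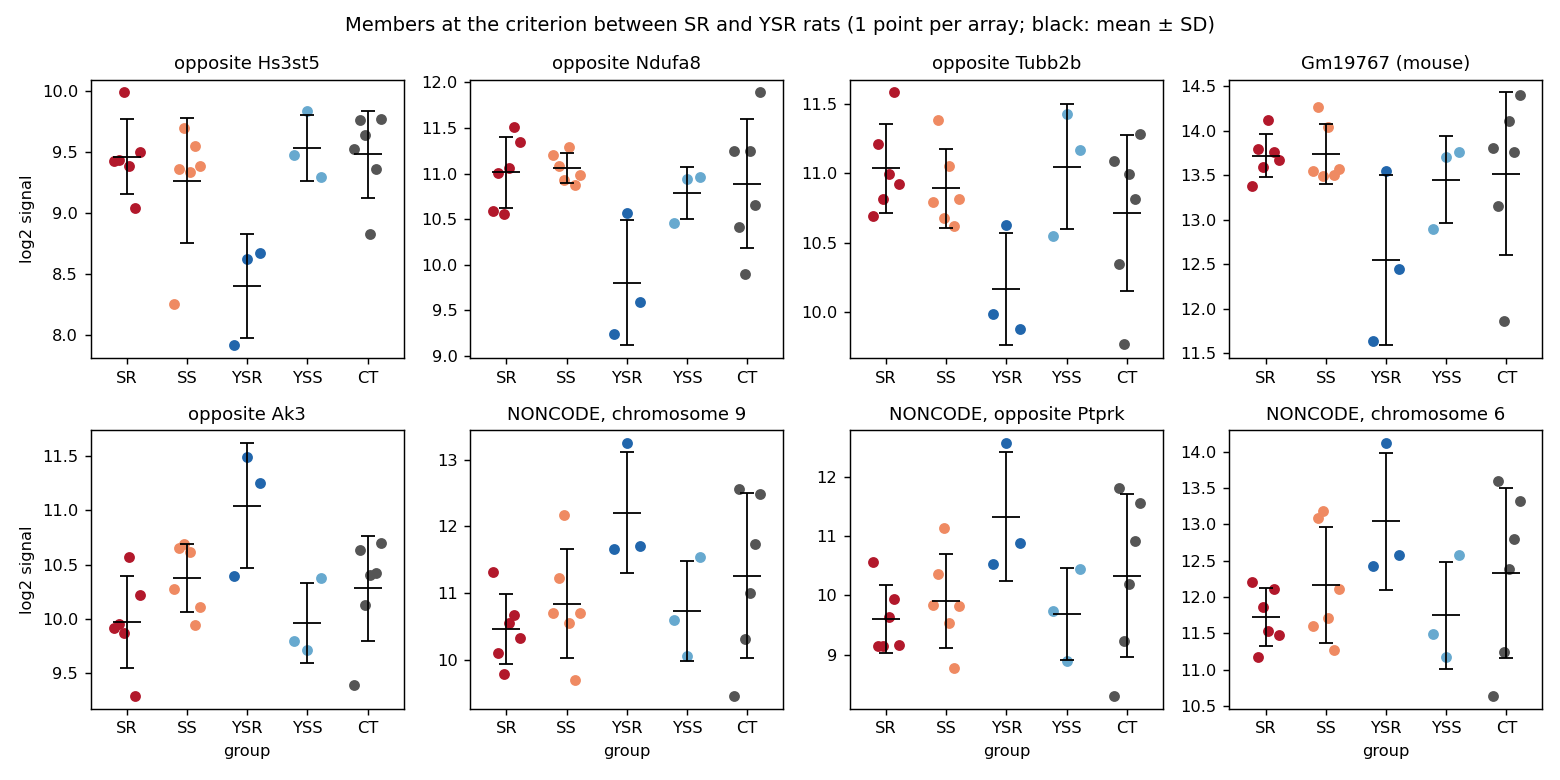
Log2 signal of 8 of the 15 members at the criterion between SR and YSR rats, by group; each point is an array and black bars are the group mean and SD. The top row holds members lower in YSR, such as the cluster opposite Hs3st5 with YSR arrays between 7.92 and 8.68, under the limit of 9.27, and the bottom row members higher in YSR.

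YSR and YSS rats, which received many or fewer shocks without the drug, gave 17 members at the criterion, 6 higher and 11 lower in YSR. That is 1.47% of members, against a background of 1.41%, with 1.24% for higher and 0.174% for lower. At an unadjusted p under 0.05 there were 74, 6.38% against 4.66%, of which 12 were higher against 3.03% and 62 lower against 1.63%. An exact test of 3 against 3 arrays cannot go below 0.1. Every array of these groups moved the count, which was 28 without YSR1, 27 without YSR2, 34 without YSR3, 78 without YSS1, 8 without YSS2 and 31 without YSS3. Of these 17, 10 were also among the 15 of the SR comparison, and both lists share the YSR arrays. The cluster opposite Hs3st5, below the limit on all 3 YSR arrays, averaged 9.53 in YSS rats, 0.26 above the limit. The cluster across Ak3 was 1.08 higher in YSR (SE 0.33, adjusted p = 0.914, limma). A NONCODE transcript opposite Otof, the gene of a calcium sensor for vesicle release, read 10.40, 10.57 and 10.73 in YSR arrays, against 10.85, 12.15 and 11.22 in YSS arrays. Its difference was -0.84 (SE 0.28, adjusted p = 0.914, limma), and it followed the mean over all members at r = 0.88. The mouse predicted genes Gm23334, Gm25325 and Gm24488 gave log2 differences of -1.32, -0.79 and -0.77. Gm23334 rests on 3 probes, and Gm24488 averaged 9.18 in YSR rats, below the limit.

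SS and YSS rats gave 5 members at the criterion, all higher in SS, 0.431% against a background of 0.164% (0.133% for higher), and 4 of the 5 were mitochondrial tRNA clusters. At an unadjusted p under 0.05 there were 27, against a background of 1.85%, with 10 higher against 1.42% and 17 lower against 0.42%. The cluster at chrM:11538-11605 read 15.03, 15.86 and 16.60 (lowest, median, highest) in SS arrays, against 15.10, 15.13 and 15.04 in YSS arrays. It was 0.80 higher in SS (SE 0.28, adjusted p = 0.987, limma; exact permutation p = 0.0833), and the groups overlapped through SS3, the lowest SS array. At chrM:15280-15346 the difference was 1.12 (SE 0.43), with 8.96 to 11.37 in SS, against 9.48, 9.28 and 10.03 in YSS. The remaining tRNA clusters at the criterion, at chrM:15348-15415 and chrM:11606-11735, differed by 0.82 and 0.85. All 18 mitochondrial tRNA clusters were higher in SS than in YSS rats, by a median of 0.49. The 9 other mitochondrial members were also all higher in SS, so this direction was not particular to tRNAs. The 10 mitochondrial coding clusters were all higher by a median of only 0.05. The coding clusters averaged between 19.38 and 19.55 per array, at the top of the scale. The tRNA mean was 14.49 ± 0.41 in SS rats (SD, n = 6) and 14.01 ± 0.12 in YSS rats (n = 3). Within SS it ran between 13.86 in SS3 and 15.01 in SS4, a spread wider than the difference. The tRNA clusters are parts of the same precursor RNAs, with a median correlation of 0.50, so they do not count as 18 separate observations. None of the 18 was higher in SR than in SS rats, with a median difference of -0.24. Of all 27 mitochondrial members 2 were higher in SR than in SS rats, with a median difference of -0.25. The count of 5 was 1 without SS4, 2 without SS1, 2 without SS2, 12 without SS3, 21 without YSS1 and 8 without YSS3. The mitochondrial stretch correlated at 0.53 with the striatal projection neuron markers.

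**Figure D4:**
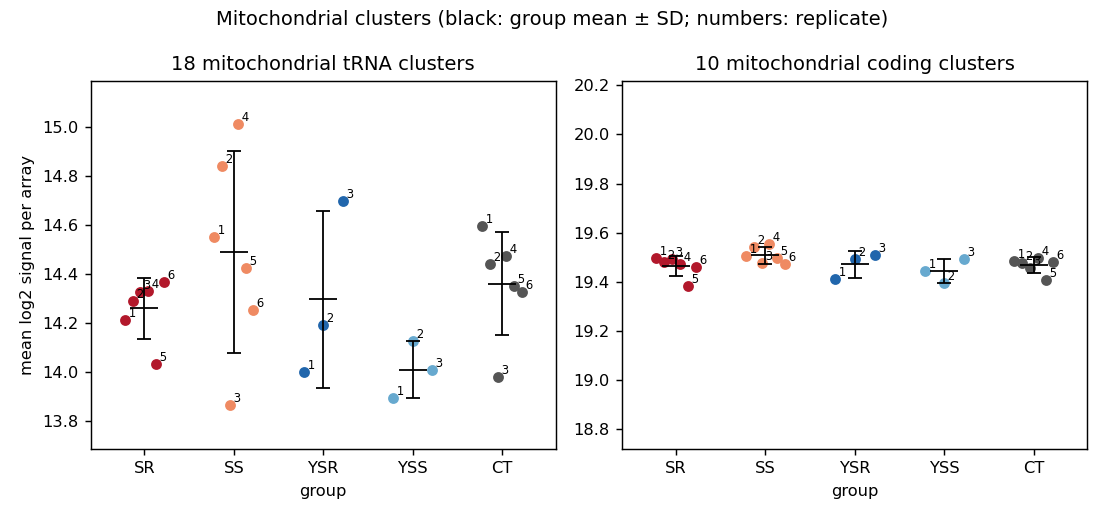
Mean log2 signal per array of the 18 mitochondrial tRNA clusters and of the 10 expressed mitochondrial coding clusters, by group, on y axes of equal range; numbers are replicates and black bars the group mean and SD. SS arrays run between 13.86 and 15.01 in tRNA clusters, while coding clusters stay between 19.38 and 19.55.

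The METH difference from yoked rats was itself compared between SR and SS. There were 23 members at the criterion for this interaction, 11 higher and 12 lower, or 1.98% against a background of 1.71%. The background was 0.338% for higher and 1.37% for lower. At an unadjusted p under 0.05 there were 41, 3.54% against 3.83%, with 17 higher against 1.27% and 24 lower against 2.56%. The smallest adjusted p was 0.958 (limma). The cluster across Ak3 gave -1.50 (SE 0.41); this value shares the YSR and YSS arrays with the comparisons above. In the Ube3a stretch Gm26334 and Gm25221 met the criterion at 0.84 each, with identical values on every array, so they count as 1 profile. All 37 members of the Sfmbt2 stretch were positive, by a median of 0.44, and 1 met the criterion. The count was 42 without YSR1, 40 without YSS1, 14 without YSS2, 15 with ordinary variances and 14 with the replicate number as a block.

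Differences from CT rats are descriptions, since CT arrays chose the members. The criterion, which includes a p, serves here only to pick out members, and nothing is read from the counts or from their distance to the background. SR rats showed 7 members at the criterion, 0.604% against a background of 0.226%, with 2 higher against 0.144% and 5 lower against 0.082%. SS rats showed 0 against a background of 0.0308%, which was 0.0205% for higher and 0.0103% for lower. YSR rats showed 10, 0.863% against 0.205%, with 3 higher and 7 lower against 0.103% each. YSS rats showed 9, 0.777% against 0.625%, with 5 higher against 0.246% and 4 lower against 0.379%. A member near the limit could enter through high CT arrays, so the choice favours members lower than CT. Of the 7 members for SR, 5 lay within a coding gene on its strand and were lower in SR: Kcnab1, a potassium channel subunit, Cdh8, a cadherin, LOC102547248 in Anks1b, Dgkb, a diacylglycerol kinase, and Homer1, a postsynaptic scaffold. The cluster in Cdh8 ran from 7.95 to 9.97 in SR arrays, against 9.30 to 11.46 in CT arrays, a log2 difference of -1.01, with an SR mean of 9.12 that is below the limit. LOC102547248 also had an SR mean below the limit, at 8.69, and its CT mean of 9.52 stood only 0.25 above it. The 4 clusters other than that in Homer1 correlated with the striatal projection neuron score at 0.68 to 0.75. The count of 7 was 0 without SR5, 4 without SR6, 14 without SR1, 20 without SR3, 27 without CT1, 13 without CT3 and 1 without CT5. The count of 0 for SS reached 5 without CT6, 4 without CT4 and 3 without CT1. Of the 10 members for YSR, 8 were among the 15 members of SR against YSR and share the YSR arrays. The largest was kakla, a locus on chromosome 1, which read 9.93, 11.12 and 10.98 in YSR arrays, against 8.94, 9.41 and 10.44 (lowest, median, highest) in CT arrays, a difference of 1.17. In YSS rats a cluster opposite Basp1, a growth cone protein gene, read 10.23, 11.94 and 11.28, against 8.76, 10.37 and 10.51 in CT arrays, a difference of 1.27; it correlated with the cortical score at 0.85. The counts were 22 for YSR without YSR3, 6 for YSR without YSR1, and for YSS 32 without YSS1, 15 without YSS2 and 17 without CT1.

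The members higher in SR than in CT rats were LOC102546820 and a cluster described as Mit1/Lb9, and both belonged to a set that varied strongly between rats. Mit1/Lb9 lies on chromosome 4 (TC0400000563.rn.1, chr4:58085196-58093051, plus strand) across Copg2, a coat protein gene on the minus strand. In mouse it belongs to an imprinted domain with Mest, a hydrolase gene active from the paternal copy. It read 13.42, 14.92 and 15.47 (lowest, median, highest) in SR arrays, 13.88, 14.22 and 14.64 in SS arrays, 14.98, 13.47 and 13.68 in YSR arrays, 14.34, 14.22 and 15.24 in YSS arrays, and 13.12, 13.51 and 14.71 in CT arrays. SR1 was the lowest SR array, while YSR1, YSS3 and CT1 were the highest of their groups. SR exceeded CT by 0.88 and SS by 0.44 (SE 0.35, adjusted p = 0.786 for SR against SS, limma), within the spread of the arrays.

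Its neighbours on the same strand behaved alike. Copg2os2, 7492 bases away, and LOC102553515 correlated with Mit1/Lb9 at 0.98 each and with one another at 0.98. A pair of neighbouring members in Nrxn3 also reached 0.98. Mest, the coding gene upstream, correlated with Mit1/Lb9 at 0.91, but Copg2, which it crosses, at only 0.28. Copg2 ran only between 10.68 and 11.36 over the 24 arrays. LOC102546820 lies elsewhere, on chromosome X opposite Zbtb33 (chrX:124326334-124338952), and yet correlated with Mit1/Lb9 at 0.92. It read 10.18, 12.60 and 14.08 in SR arrays, against 10.21, 10.76 and 12.55 in CT arrays, 1.25 higher in SR. Its within-group SD of 1.01 was among the 3 largest of the members, after LOC102555286 at 1.497 and LOC102552879 at 1.21. Mit1/Lb9 correlated at 0.42 with the cortical score and at -0.57 with the striatal score; their part was not tested.

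**Figure D5:**
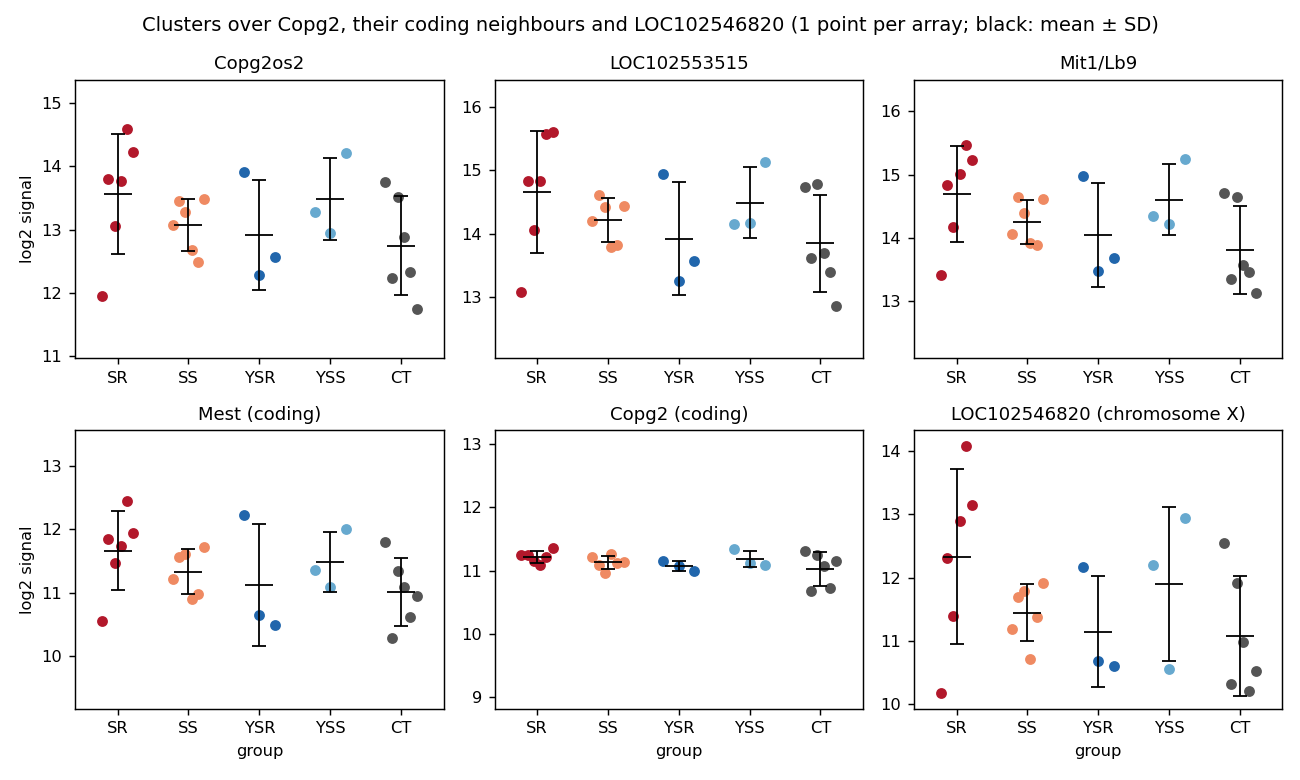
Log2 signal of Copg2os2, LOC102553515 and Mit1/Lb9, which lie across Copg2, of the coding clusters of Mest and Copg2, and of LOC102546820, by group, on y axes of equal range; points are arrays and black bars the group mean and SD. SR1 is low and YSR1 and YSS3 are high in all panels but that of Copg2.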

How the data were processed

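Total RNA of dorsal striatum of 24 rats was hybridised, each on an Affymetrix rat transcriptome array of its own. The authors summarised the scans per transcript cluster with Affymetrix Expression Console and deposited log2 signals; the summarisation method and genome build are not given in the sources used here. A deposited analysis table gave cluster types, symbols, positions and other values such as probe numbers; its fold changes and p-values are the authors' own comparisons and were not used. Arrays carry no read depth, so the number of arrays limits precision. The p-values set a difference against the spread between arrays of a group. That spread holds differences between rats and measurement noise together.

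The log2 values were used as deposited. Members and lists were chosen with earlier results of these data known. Clusters above bioB in CT rats (9755) were fitted in limma 3.58.1 (R 4.3.3) with a mean for each of the 5 groups, moderated variances and Benjamini-Hochberg adjustment over all 9755. Exact 2-sided permutation tests were run for single members. The criterion was 1.7-fold with unadjusted p under 0.05. Coding clusters longer than 3 Mb (13) were left out when members were placed. Named members were those on the lists, the 10 highest and the 10 most variable, at most 10 by p in each comparison without CT, at most 6 by fold change against CT, the 3 on each side of the bioB limit, and the 3 pairs of highest correlation; members named beyond this were chosen after their values were seen. Sequences came from RefSeq tables (GRCr8), and 25 members matched by gene ID, transcript accession or symbol. The fit was tested on simulated data for 9755 clusters with 200 changed, counting those at an adjusted p under 0.05 (limma). For SR against SS it recovered 173 at a log2 change of 1 and 198 at 2, and for YSR against YSS 159 and 187. The simulated noise was independent between clusters, whereas the members share much of their variation. These counts therefore check the fit and do not give its power for the members. Alternatives were quantile normalisation, median centring, other filters, a fit of 2 groups, no moderation, a replicate block, tissue covariates, each array left out in turn and, added after the data were seen, centring each array on the mean over members.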

Additional observations from a re-analysis of the deposited data

Results flagged for a closer look

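In 11 of 165 groups of 4 or more arrays tested, 1 array stood far from the rest of its own group, and highest and lowest below refer to that group alone; chance alone flags about 1 in 20. For the cluster opposite Hs3st5 the SS1 array read 8.26, with the next SS array at 9.34. For the NONCODE transcript opposite Otof SR4 was the highest SR array at 11.34. Among mitochondrial tRNA clusters, SS3 was the lowest SS array at 8.96 for that at chrM:15280-15346, and CT6 the lowest CT array at 13.80 for that at chrM:15348-15415. The means of the mitochondrial stretch and of mitochondrial coding clusters were lower in SR5 than in the other SR arrays, at 15.02 and 19.38. For LOC102547248 CT5 was the highest CT array at 10.81. A cluster within Zswim6 that is described as miR-325 and has 2 probes was lowest among SR arrays in SR5 at 8.30 and highest among SS arrays in SS1 at 10.36. Among SS arrays Bc1 was highest in SS2 at 18.93, and among CT arrays Rmrp was lowest in CT3 at 15.82. No explanation of these arrays was tested.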

How the results depend on the processing

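No member reached an adjusted p under 0.05 in a tested comparison under any alternative, and the smallest was 0.158. With 1 array left out, counts at the criterion (for the F test, at an unadjusted p under 0.05) ran between 0 and 8 for SR against SS, 12 and 25 for SR against YSR, 14 and 42 for the interaction, 8 and 78 for YSR against YSS, 47 and 256 for the F test, 1 and 21 for SS against YSS, 0 and 27 for SR against CT, 0 and 5 for SS against CT, 6 and 22 for YSR against CT, and 9 and 32 for YSS against CT. The number of members ran between 1124 and 1201 as CT arrays were left out, and it was 1123 with a filter on 24 arrays. With median centring SR against SS gave 1 and SS against CT 1. In a fit of 2 groups SR against SS gave 1 and YSR against CT 6. With choroid plexus and cortex covariates SR against SS gave 8, SR against CT 4 and SS against CT 2. Without moderation the interaction gave 15. Centring on the mean over members, chosen after the data were seen, gave 143 for the F test. The cause was not tested. The labels do not say which yoked rat was linked to which METH rat, so the main comparisons left the yoking out. Replicate numbers gave no clear pairing. Over 39 pairs with the same number the correlation of deviations ran from -0.69 to 0.64, with a median of -0.11 and 12 over 0.1. For 6 of 24 arrays the highest correlation was with the same number. Whether linked rats were alike cannot be told from this. With the replicate number as a block the interaction gave 14, SR against YSR 13, the F test 90, SS against YSS 4, SR against SS 0, YSR against YSS 14, SR against CT 5, YSR against CT 7, YSS against CT 7, and SS against CT 0. Of 25 named differences followed through 823 alternative values, 753 stayed on their side of the criterion, 70 fell short of it and 0 reversed. Many of these values left out an array of neither compared group, which leaves the difference itself as it was. The count of 753 is therefore no measure of stability. Of the 223 values that left out no array, 24 fell short. Differences of members at the ceiling, or with a group below bioB, are limited in size by those ends of the scale.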
